A study of Mus musculus with 4 samples.

Results

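Immediate early genes are switched on within minutes of a signal, without new protein synthesis, and encode short-lived transcription factors and feedback inhibitors. In liver they are known for their response to partial hepatectomy, hormones, injury and cell stress. The 10 genes described here were chosen by name and are *Fos*, *Jun*, *Junb*, *Egr1*, *Ier2*, *Ier3*, *Atf3*, *Myc*, *Klf6* and *Dusp1*. All 10 were found among the 22103 entries of the deposited table, 1 entry each, and all 10 were expressed highly enough to be tested.

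RNA was taken from whole liver of 2 WT mice and 2 KO mice. The KO mice, named Brg1 LKO in the study, carry *Smarca4* f/f and the *Alb*-Cre transgene. The study describes them as a hepatocyte conditional knockout of Brg1, the catalytic subunit of the SWI/SNF chromatin remodeling complex. Whether the other cells of the organ kept Brg1 was not tested here. The WT mice are described as littermates. Whether they carry the floxed allele is not given in the sources used here. The study used male mice of 8 weeks and the NIAAA procedure, an ethanol liquid diet that ends with a gavage of ethanol, with a diet of 2 weeks, while the sample labels give 15 days of alcohol for all 4 mice. There was no group without alcohol.

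Each value is an FPKM, the fragments of a gene scaled to the length of the transcript and the size of the library. Steps in the low values gave estimated totals between 72585950 and 80912262 reads per liver. The targeted gene *Smarca4* averaged 0.593 ± 0.0204 FPKM in KO livers, against 1.87 ± 0.116 FPKM in WT livers (SD, n = 2 each), in the direction of the labels. The defining hepatocyte marker *Alb* was between 10710 and 12490 FPKM in the 4 livers. The KO livers were less alike than the WT livers. Of the 12346 genes tested, 12.0% differed over 2-fold between the KO livers and 3.59% between the WT livers, on the log2(FPKM + 0.1) scale used throughout. The median gene was 0.30 higher in KO replicate 2 than in KO replicate 1 and 0.27 higher in WT replicate 2 than in WT replicate 1 on that scale. Nothing in the labels gives a batch.

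The bases before the start site are shown for 4 of the 5 genes that differed over 2-fold between the KO livers. They are only a part of the DNA on which signals to these genes converge. The sequences come from RefSeq (GRCm38.p6), which matched 7 of the 10 genes, and *Egr1*, *Ier2* and *Myc* were not among them. Each covers 200 bases, read 5′ to 3′ on the strand of the gene and ending at the base before the start site. Capitals mark TGACG on either strand (the core of the cAMP response element bound by CREB and ATF proteins), TGACATCA (the variant AP-1 site described in the *Jun* promoter) and TATAAA (the TATA box), and the *Ier3* stretch holds none of them.
Fos, chr12:85473690-85473889, plus strand: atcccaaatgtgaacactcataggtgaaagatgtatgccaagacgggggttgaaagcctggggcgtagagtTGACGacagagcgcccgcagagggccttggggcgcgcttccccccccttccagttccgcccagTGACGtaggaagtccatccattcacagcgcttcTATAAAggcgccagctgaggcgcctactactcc
Jun, chr4:95052223-95052422, minus strand: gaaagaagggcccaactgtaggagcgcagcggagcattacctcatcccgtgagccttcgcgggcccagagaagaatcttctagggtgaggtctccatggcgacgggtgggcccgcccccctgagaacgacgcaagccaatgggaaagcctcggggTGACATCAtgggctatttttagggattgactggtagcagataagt
Dusp1, chr17:26508473-26508672, minus strand: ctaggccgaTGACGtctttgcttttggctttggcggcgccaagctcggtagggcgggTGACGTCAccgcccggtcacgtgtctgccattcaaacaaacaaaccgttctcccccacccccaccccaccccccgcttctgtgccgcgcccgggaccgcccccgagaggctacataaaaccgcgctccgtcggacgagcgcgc
Ier3, chr17:35821513-35821712, plus strand: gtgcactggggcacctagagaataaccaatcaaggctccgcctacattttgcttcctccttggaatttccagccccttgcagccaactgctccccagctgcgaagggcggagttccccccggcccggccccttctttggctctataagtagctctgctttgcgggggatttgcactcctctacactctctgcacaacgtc

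The search used windows of 250 bases before and 50 bases after the start, on both strands. TGACG was found in the windows of 4 of the 7 genes, *Fos*, *Junb*, *Atf3* and *Dusp1*, and in 20.8% of all 32851 windows. The *Fos* window holds it from −129 to −125 and from −66 to −62, counted from the start site with −1 as the base before it, and TATAAA from −33 to −28. In *Dusp1* the full palindrome TGACGTCA, which contains TGACG on both strands, lies from −143 to −136 and was found in 1.79% of all windows. TGACATCA was found in *Jun* (from −45 to −38) and *Klf6*, and in 3.62% of all windows. Neither TGACTCA (5.20% of all windows) nor the CArG box, the core of the serum response element (1.63%), was found in the 7 windows. Sites more than 250 bases before the start were not searched, and *Egr1* had no window. The genes may therefore have such sites outside the windows. None of these letters shows that a factor was bound in these livers.

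The levels of the 10 genes spanned from a mean of 0.616 FPKM for *Myc* to 39.7 FPKM for *Junb* over the 4 livers. The AP-1 genes *Junb* and *Jun*, the early response genes *Ier2* and *Egr1*, and *Dusp1* had group means above 5 FPKM in both genotypes, while *Fos*, *Atf3*, *Ier3*, *Klf6* and *Myc* were lower. In none of the 10 genes did the genotypes differ past the cutoffs that the study applied, over 2-fold together with p below 0.05 before adjustment (limma on log2(FPKM + 0.1)). The study applied these cutoffs to DESeq, a different test from the limma fit used here. In the limma fit 0.98% of all genes tested passed the cutoffs, 0.437% higher and 0.543% lower in the KO livers. An unadjusted p under 0.05 was reached by 1 gene, *Ier3*, against 2.0% of all genes tested, and the adjusted p was 1 for each of the 10. The log2 fold change was above 0 in 5 genes and below 0 in 5, with a median of 0.01, beside −0.02 for all genes tested. The groups did not overlap in 1 of the 10 genes, *Ier3*, against 20.7% of all genes tested. An exact two-sided permutation test of 2 livers against 2 cannot go below p = 0.333.

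**Figure D1:**
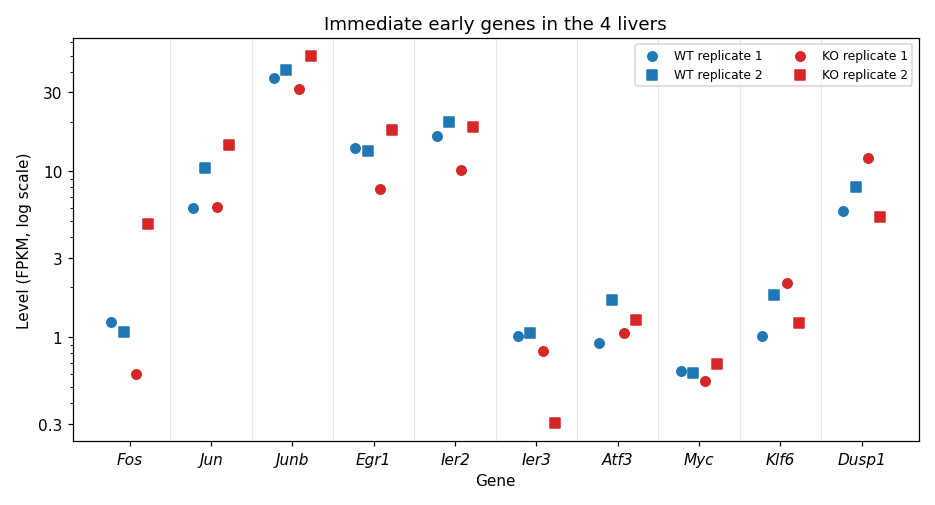
Level of each of the 10 genes in FPKM on a log axis, with 1 point per liver (circles replicate 1, squares replicate 2, blue WT, red KO). In *Fos* the KO livers, at 0.595 and 4.84 FPKM, sit on either side of the WT livers, and *Ier3* is the gene in which both KO points lie below both WT points.

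*Fos* (ENSMUST00000021674, chr12:85473890-85477273, plus strand, 4 exons) encodes the partner that joins a JUN protein in the AP-1 dimer. It was at 1.23 and 1.07 FPKM in WT replicates 1 and 2, against 0.595 and 4.84 FPKM in KO replicates 1 and 2. KO replicate 1 was therefore the lowest liver and KO replicate 2 the highest, and the groups overlapped. KO replicate 2 was 8.14-fold above KO replicate 1. These levels rest on an estimated 98 and 741 reads, and the 95% exact Poisson intervals of the KO levels, from 0.483 to 0.725 FPKM and from 4.50 to 5.20 FPKM, did not touch. Such intervals cover counting error only, and the reads are estimates. Between genotypes *Fos* differed by 0.57 on the log2 scale (standard error 0.63, 95% interval −0.79 to 1.93, limma, adjusted p = 1). It was 1.99 without KO replicate 1, past the threshold, and −0.84 without KO replicate 2, so its sign turned with 1 liver.

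*Jun* (ENSMUST00000107094, chr4:95049034-95052222, minus strand, 1 exon) encodes the central AP-1 subunit and is known to drive its own promoter. Its values were 6.01 and 10.5 FPKM in WT replicates 1 and 2, against 6.12 and 14.5 FPKM in KO replicates 1 and 2. KO replicate 2 was again the highest liver, but the lower values of both genotypes were close to each other. Its log2 fold change between genotypes was 0.24 (standard error 0.43, 95% interval −0.68 to 1.17, limma), and −0.37 without KO replicate 2. The noncoding gene *Junos* overlaps *Jun* on the opposite strand, and it is not known whether the authors' values used the strand of the reads.

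*Junb* (ENSMUST00000064922, chr8:84976910-84978718, minus strand, 1 exon), the AP-1 subunit that can restrain JUN, was the most abundant of the 10 genes. It was at 36.8 and 40.9 FPKM in WT replicates 1 and 2, against 31.3 and 49.6 FPKM in KO replicates 1 and 2. The WT values lay between the KO values, and the log2 fold change was 0.02 (standard error 0.35, 95% interval −0.72 to 0.76, limma).

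*Atf3* (ENSMUST00000027941, chr1:191170296-191183340, minus strand, 4 exons) encodes a stress-induced bZIP factor that can pair with JUN proteins. Its values were 0.915 and 1.67 FPKM in WT replicates 1 and 2, against 1.05 and 1.26 FPKM in KO replicates 1 and 2. Here the KO values lay between the WT values, the reverse of *Junb*. For *Atf3* the log2 fold change was −0.10 (standard error 0.37, 95% interval −0.89 to 0.70, limma).

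*Egr1* (ENSMUST00000064795) encodes a zinc finger factor induced through serum response factor. It was at 13.9 and 13.3 FPKM in WT replicates 1 and 2, against 7.82 and 17.8 FPKM in KO replicates 1 and 2. The WT livers were nearly equal and lay between the KO livers, which differed 2.27-fold. For *Egr1* the log2 fold change was −0.21 (standard error 0.40, 95% interval −1.06 to 0.64, limma), and it was −0.79 without KO replicate 2 and 0.38 without KO replicate 1.

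*Ier2* (ENSMUST00000060427, chr8:84661331-84662852, minus strand, 1 exon) is an early response gene whose protein acts in the nucleus. Its values were 16.3 and 19.7 FPKM in WT replicates 1 and 2, against 10.2 and 18.7 FPKM in KO replicates 1 and 2. KO replicate 1 stood below the other 3 livers, as it did for *Egr1*. For *Ier2* the log2 fold change was −0.38 (standard error 0.37, 95% interval −1.17 to 0.41, limma).

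*Ier3* (ENSMUST00000003635, chr17:35821684-35822923, plus strand, 2 exons), also known as IEX-1, is tied to the control of apoptosis and NF-κB signaling. It was at 1.02 and 1.06 FPKM in WT replicates 1 and 2, against 0.826 and 0.304 FPKM in KO replicates 1 and 2, from an estimated 93, 96, 73 and 25 reads. Both KO livers were below both WT livers, and KO replicate 2 was the farther from them. The KO mean of 0.565 ± 0.369 FPKM (SD, n = 2) was 54.4% of the WT mean of 1.04 ± 0.0327 FPKM (SD, n = 2). Between genotypes the log2 fold change of *Ier3* was −0.90 (standard error 0.41, 95% interval −1.77 to −0.02, limma, adjusted p = 1), short of the 2-fold part of the threshold. It was −0.30 without KO replicate 2 and −1.49 without KO replicate 1. Its unadjusted p was no longer under 0.05 with a pseudocount of 1, no filter on low values, median-ratio rescaling, quantile normalization or a replicate block, nor without WT replicate 1, WT replicate 2 or KO replicate 2.

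*Myc* (ENSMUST00000188482, chr15:61985922-61989908, plus strand, 3 exons) encodes a factor that drives growth and ribosome production. It was at 0.626 and 0.607 FPKM in WT replicates 1 and 2, against 0.541 and 0.692 FPKM in KO replicates 1 and 2, from an estimated 58 to 69 reads per liver. The highest liver was 1.28-fold above the lowest, the smallest span among the 10 genes, and the counting intervals of all 4 livers overlapped. The log2 fold change was −0.01 (standard error 0.35, 95% interval −0.75 to 0.73, limma), an interval that still holds changes of more than 1.5-fold either way.

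*Klf6* (ENSMUST00000000080, chr13:5861482-5870394, plus strand, 4 exons) encodes a zinc finger factor of the Krüppel-like family. Its values were 1.02 and 1.80 FPKM in WT replicates 1 and 2, against 2.12 and 1.21 FPKM in KO replicates 1 and 2. *Dusp1* (chr17:26505591-26508474, minus strand) encodes a phosphatase that switches off the MAP kinases p38 and JNK, and so acts as a brake on the pathway. It was at 5.76 and 8.08 FPKM in WT replicates 1 and 2, against 12.0 and 5.31 FPKM in KO replicates 1 and 2. In both genes KO replicate 1 was the highest liver, the opposite of *Fos*. Their log2 fold changes were both 0.23 (standard errors 0.39 and 0.41, limma), and they were −0.16 for *Klf6* and −0.36 for *Dusp1* without KO replicate 1. The table lists *Dusp1* under ENSMUST00000126178, which the annotation calls a retained intron transcript, and it is not known whether the value stands for all reads of the gene or for that transcript. These values may therefore not be those of the coding mRNA.

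**Figure D2:**
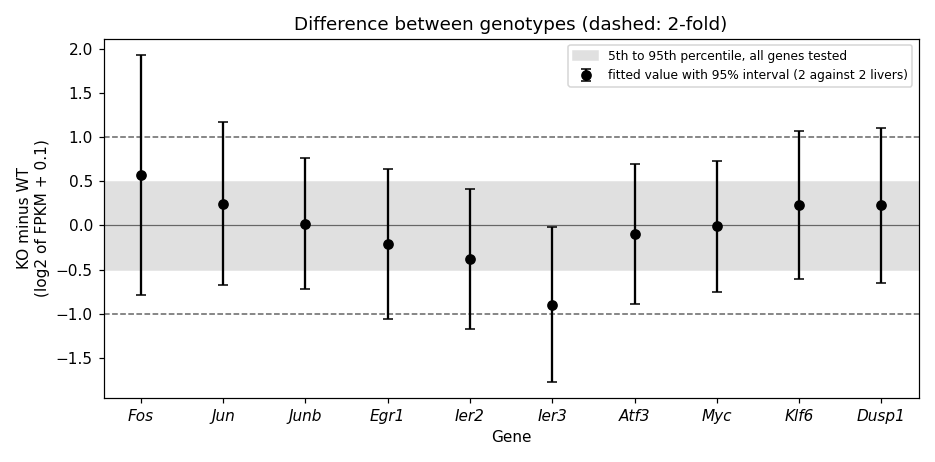
Fitted KO minus WT difference of each gene in log2(FPKM + 0.1), with its 95% interval from limma (2 against 2 livers), a grey band for the 5th to 95th percentile of all genes tested (−0.50 to 0.49) and dashed lines at 2-fold. The intervals of 9 genes span 0, and that of *Ier3* runs from −1.77 to −0.02.

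Livers of the same genotype also differed, and in most of the 10 genes more so between the KO livers. The exceptions were *Atf3* and *Klf6*. As replicate 2 minus replicate 1 on the log2 scale, *Atf3* was at 0.80 in WT and 0.24 in KO. *Klf6* was at 0.77 in WT and −0.76 in KO. Between the KO livers, 5 of the 10 genes differed over 2-fold, against 12.0% of all genes tested, and between the WT livers 0 of the 10 did, against 3.59%. KO replicate 2 was over 2-fold higher in *Fos*, *Jun* and *Egr1* (9.61% of all genes tested were), and KO replicate 1 was over 2-fold higher in *Ier3* and *Dusp1* (2.35% of all genes tested were). This compares single livers and has no replicate check. Because the median gene was itself 0.30 higher in KO replicate 2, the count was also taken relative to that gene. It was then 4 of 10, *Fos*, *Ier3*, *Klf6* and *Dusp1*, against 9.42% of all genes tested, and *Jun* and *Egr1* were at 0.93 and 0.88 on the log2 scale. Between the WT livers it stayed at 0 of 10, against 2.58%.

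**Figure D3:**
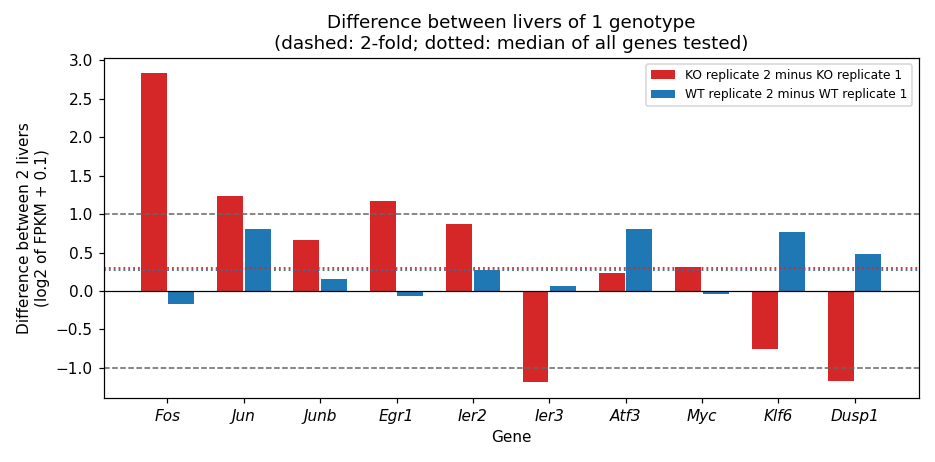
Difference between the livers of 1 genotype for each gene in log2(FPKM + 0.1), red for KO replicate 2 minus KO replicate 1 and blue for WT replicate 2 minus WT replicate 1, with dashed lines at 2-fold and dotted lines at the median of all genes tested (0.30 and 0.27). The red bar of *Fos* reaches 2.83 and those of *Ier3* and *Dusp1* reach −1.19 and −1.17, while no blue bar passes 0.80.

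The span over the 4 livers, highest minus lowest, was 1.08 on the log2 scale at the median of the 10 genes and 0.63 at the median of all genes tested. Without KO replicate 1 the median of the 10 genes was 0.68. Leaving out a liver can only keep or shrink a span. The same was not computed for all genes tested, so 0.68 cannot be set beside 0.63. Because spread can depend on level, each gene was also set beside the genes whose mean level was within 2-fold of its own. The span of *Fos* (2.83) was larger than that of 99.6% of 3943 such genes. *Ier3* (1.52), *Jun* (1.26), *Egr1* (1.17) and *Dusp1* (1.17) exceeded between 89.8% and 93.0% of theirs. *Myc*, at 0.31, exceeded 9.4% of its 3404. In 9 of the 10 genes the span was above the median of the genes of like level.

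Among the 10 genes, the profiles over the 4 livers that lay closest together were *Junb* with *Myc* and *Klf6* with *Dusp1*, at Euclidean distances of 0.288 and 0.348 between log2 values centred on each gene's mean. *Egr1* and *Ier2* were at 0.363. *Myc* lay nearer to a flat profile, the same in all livers, at 0.218, than to *Junb*. Among 7725 other genes averaging 1 FPKM or more, those nearest to *Fos* were *Ppapdc1b*, *Mthfd2* and *Oas1g*, at distances of 0.282, 0.292 and 0.346. *Mthfd2*, a mitochondrial folate enzyme, was at 0.776 and 0.786 FPKM in WT replicates 1 and 2, against 0.337 and 2.72 FPKM in KO replicates 1 and 2. Genes near to *Atf3* were *Hsd17b11* (0.0145) and *Grcc10* (0.0322), and genes near to *Myc* were *Ifitm1* (0.0345) and *Gpr146* (0.0478). These distances rest on 4 livers and are a description only.

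Related genes were taken from lists of the same families and pathways. Of 13 further AP-1 genes, 10 were tested and 0 passed the threshold or had an unadjusted p under 0.05 (limma), with a median log2 fold change of 0.00. *Jund*, the AP-1 gene with steady expression in many cells, was at 14.0 and 21.1 FPKM in WT replicates 1 and 2, against 19.0 and 15.7 FPKM in KO replicates 1 and 2. *Atf2* was at 11.8 and 12.3 FPKM in WT replicates 1 and 2, against 11.5 and 18.7 FPKM in KO replicates 1 and 2. *Fosb*, the closest relative of *Fos*, was below the expression filter and had an estimated 10 and 13 reads in WT replicates 1 and 2, against 3 and 32 reads in KO replicates 1 and 2. It was chosen after its values were seen, and its order of livers resembled that of *Fos* in that KO replicate 1 was lowest and KO replicate 2 highest. Of 8 EGR, NR4A and NAB genes, 3 were tested, and 0 passed the threshold or had an unadjusted p under 0.05. *Nab2*, an EGR corepressor that EGR proteins are known to induce, was at 8.07 and 6.16 FPKM in WT replicates 1 and 2, against 2.87 and 9.89 FPKM in KO replicates 1 and 2, with both WT values between the KO values as for *Egr1*. *Nab1*, the related corepressor, was between 14.2 and 16.4 FPKM in the 4 livers.

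Of 38 further immediate early genes, 37 were tested and 0 passed the threshold, with a median log2 fold change of 0.05 and a range from −0.52 to 0.96. An unadjusted p under 0.05 was reached by *Btg2* and *Klf4*, both higher in the KO livers and both named after their values were seen. *Btg2*, an antiproliferative gene, was at 14.6 and 9.30 FPKM in WT replicates 1 and 2, against 23.3 and 22.4 FPKM in KO replicates 1 and 2. Its log2 fold change was 0.96 (standard error 0.35, limma, adjusted p = 1), 0.64 without WT replicate 2 and, past the threshold, 1.28 without WT replicate 1. *Klf4* was at 0.249 and 0.405 FPKM in WT replicates 1 and 2, against 0.650 and 0.587 FPKM in KO replicates 1 and 2, a log2 fold change of 0.77 (limma, adjusted p = 1) that was 0.51 without WT replicate 1 and 1.04, short of the threshold, without WT replicate 2. The KO livers were close to each other in both genes, unlike in *Fos*. The most abundant genes of the list were *Errfi1*, an inhibitor of EGF receptor signaling at 102 and 125 FPKM in WT replicates 1 and 2, against 110 and 119 FPKM in KO replicates 1 and 2, and *Zfp36l1*, an mRNA decay factor at 47.0 and 70.4 FPKM against 79.3 and 64.0 FPKM.

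Between the KO livers, 11 of these 37 genes differed over 2-fold, 6 higher in KO replicate 2 and 5 higher in KO replicate 1. Of all genes tested 12.0% did, 9.61% higher in KO replicate 2 and 2.35% higher in KO replicate 1. They ran in both directions, as the 10 genes did, and the median difference was −0.06 against 0.30 for all genes tested. Examples chosen after their values were seen are *Phlda1*, at 3.02 and 11.5 FPKM in KO replicates 1 and 2, and *Hes1*, a Notch target, at 0.854 and 2.76 FPKM. In the other direction, *Sik1*, a kinase gene induced by cAMP, was at 5.98 and 1.97 FPKM, *Csrnp1* at 5.04 and 1.78 FPKM and *Cebpb*, a liver bZIP factor of the acute phase, at 31.5 and 13.7 FPKM. In each of these 5 genes both WT values lay between the KO values.

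**Figure D4:**
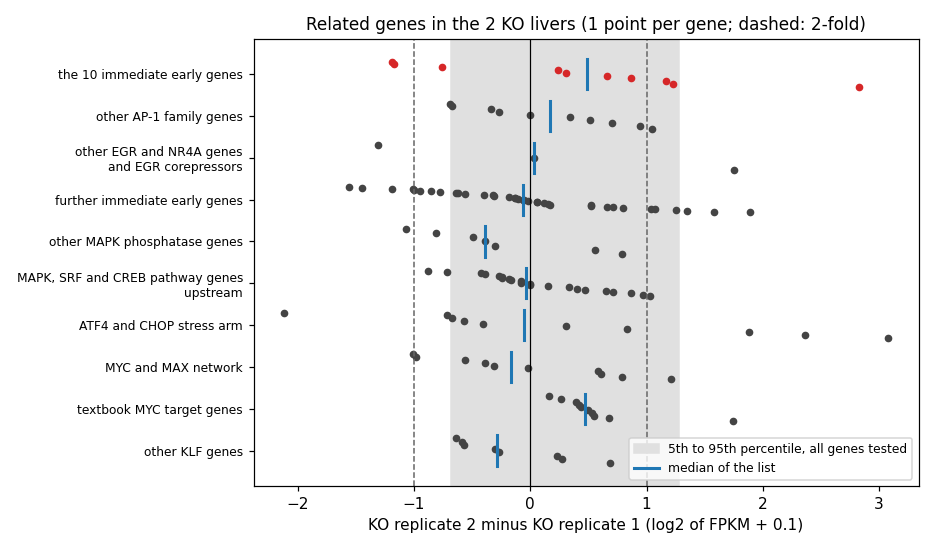
Difference between KO replicate 2 and KO replicate 1 in log2(FPKM + 0.1), with 1 point per tested gene in the 10 immediate early genes (red) and 9 related lists, a blue bar at the median of each list and a grey band for the 5th to 95th percentile of all genes tested (−0.68 to 1.28). *Fos*, at 2.83, and *Atf5*, at 3.08 in the stress list, lie farthest to the right.

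The kinases and factors that signal to these genes were listed too. Of 22 MAP kinase, SRF and CREB pathway genes, 22 were tested, 0 passed the threshold or had an unadjusted p under 0.05 (limma), and the log2 fold changes ran from −0.70 to 0.43. *Mapkapk2*, a kinase downstream of p38, was at 12.0 and 14.1 FPKM in WT replicates 1 and 2, against 19.0 and 10.2 FPKM in KO replicates 1 and 2, and the growth factor kinase gene *Rps6ka1* was at 8.67 and 13.8 FPKM against 10.9 and 8.08 FPKM. Of 9 further MAP kinase phosphatase genes, 7 were tested and 0 passed the threshold or had an unadjusted p under 0.05. *Dusp16*, whose product acts on JNK and p38, was at 6.45 and 4.72 FPKM in WT replicates 1 and 2, against 7.70 and 3.63 FPKM in KO replicates 1 and 2, so KO replicate 1 was the highest liver as for *Dusp1*. *Dusp6*, an ERK phosphatase gene, was at 2.77 and 5.98 FPKM in WT replicates 1 and 2, against 2.87 and 4.29 FPKM in KO replicates 1 and 2.

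The stress arm of ATF4 and CHOP, in which *Atf3* is a known target, had 10 of 12 genes tested, 0 of them past the threshold or with an unadjusted p under 0.05 (limma). Its median log2 fold change was −0.44, with 8 of 10 values below 0. *Atf5*, the most abundant gene of the list, was at 163 and 213 FPKM in WT replicates 1 and 2, against 45.2 and 382 FPKM in KO replicates 1 and 2. *Ddit3*, which encodes CHOP and was chosen after its values were seen, was at 0.701 and 1.25 FPKM in WT replicates 1 and 2, against 0.290 and 1.91 FPKM in KO replicates 1 and 2. In both genes KO replicate 1 was lowest and KO replicate 2 highest, as for *Fos*, with differences of 8.45-fold and 6.56-fold between the KO livers. The log2 fold changes between genotypes, −0.50 and −0.23, turned sign with KO replicate 1 left out, to 1.04 and 0.95, and that of *Ddit3* also without WT replicate 2, to 0.14. *Atf4* itself was at 14.2 and 18.7 FPKM in WT replicates 1 and 2, against 12.3 and 21.9 FPKM in KO replicates 1 and 2. *Ddit4*, also chosen after its values were seen, ran the other way, at 10.6 and 2.36 FPKM in KO replicates 1 and 2. The list as a whole did not follow *Fos*. KO replicate 2 was above KO replicate 1 in 5 of its 10 tested genes. The median difference was −0.05 on the log2 scale, against 0.30 for all genes tested.

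Of 10 genes of the MYC and MAX network, 10 were tested and 1, *Mycn*, a relative of *Myc*, fell past the threshold, while 0.543% of all genes tested did. It was at 0.398 and 0.248 FPKM in WT replicates 1 and 2, against 0.0144 and 0.0980 FPKM in KO replicates 1 and 2, from an estimated 86, 53, 3 and 19 reads. The log2 fold change was −1.47 (standard error 0.40, limma, adjusted p = 1) and stayed between −1.07 and −1.86 with each liver left out, while it was −0.32 with a pseudocount of 1. Both KO livers were below both WT livers in *Mycn*. Of 10 textbook MYC target genes, 10 were tested and 0 passed the threshold or had an unadjusted p under 0.05, with a median log2 fold change of −0.09. *Npm1* was at 35.6 and 58.3 FPKM in WT replicates 1 and 2, against 34.6 and 50.1 FPKM in KO replicates 1 and 2, and *Cdk4* at 24.8 and 28.3 FPKM against 23.9 and 32.4 FPKM. Of 9 further KLF genes, 8 were tested and 0 passed the threshold, and *Klf16* had an unadjusted p under 0.05 (log2 fold change −0.84, limma, adjusted p = 1). *Klf9* and *Klf15*, the most abundant of them, did not pass the threshold. *Klf9* was at 5.66 and 5.51 FPKM in WT replicates 1 and 2, against 7.28 and 5.91 FPKM in KO replicates 1 and 2, and *Klf15* at 3.78 and 6.49 FPKM against 5.88 and 6.93 FPKM.

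Markers of other cell types moved between the same livers, and since this is bulk tissue, fewer cells of a type and less RNA per cell cannot be told apart. The summed level of 10 macrophage and Kupffer cell markers was 48.4 and 49.6 FPKM in WT replicates 1 and 2, against 62.8 and 138 FPKM in KO replicates 1 and 2. *Adgre1* was listed as well but was not found among the deposited entries under that name. KO replicate 2 was above KO replicate 1 in 10 of 10. The median difference was 1.06 on the log2 scale, against 0.30 for all genes tested. *Clec4f*, found in Kupffer cells, was at 13.5 and 27.9 FPKM in KO replicates 1 and 2. Of these 10 markers, *Cd5l*, *Vsig4* and *Cd68* were higher in the KO livers past the threshold, against 0.437% of all genes tested, each with an adjusted p of 1 (limma). Without KO replicate 2 the log2 fold changes of *Cd5l* and *Vsig4* went from 1.21 and 1.00 to 0.25 and 0.15 and no longer passed, while that of *Cd68* went from 1.47 to 1.05 and still passed. Without WT replicate 1, *Cd5l* (1.06) and *Vsig4* (0.90) did not pass either, nor did *Vsig4* without WT replicate 2 (1.10). With all livers kept, *Cd68* passed under every alternative. *Vsig4* did not pass with a pseudocount of 1 or 0.01, no filter on low values, median-ratio rescaling, quantile normalization or eBayes without trend. *Cd5l* did not pass with no filter on low values, median-ratio rescaling or quantile normalization. In KO replicate 1 *Cd5l* and *Vsig4*, at 5.22 and 2.79 FPKM, were close to WT replicate 2, at 4.85 and 2.69 FPKM. The summed level of 10 sinusoidal endothelial markers was 29.6 and 39.3 FPKM in KO replicates 1 and 2 and 37.9 and 39.4 FPKM in WT replicates 1 and 2. KO replicate 2 was above KO replicate 1 in 7 of the 10, with a median difference of 0.80 on the log2 scale. It was over 2-fold higher in 4 of the 10, against 9.61% of all genes tested. The summed level of 9 neutrophil markers was 16.4 and 7.88 FPKM in the KO livers and 11.4 and 4.23 FPKM in the WT livers. *Ly6g*, which defines the cell type, was at or below 0.0544 FPKM in every liver. Stellate cell markers summed to between 22.2 and 26.4 FPKM and cholangiocyte markers to between 3.21 and 4.67 FPKM over the 4 livers. T, NK and B cell markers summed to between 0.229 and 0.649 FPKM. Expressed highly enough to be tested were 10 of 10 stellate, 4 of 6 cholangiocyte and 1 of 10 T, NK and B cell markers. For neutrophil, endothelial and hepatocyte markers it was 4 of 9, 10 of 10 and 8 of 8. Of the tested markers of these 6 types, 0 passed the threshold or had an unadjusted p under 0.05 (limma). For types with few markers tested this says little. Of 8 hepatocyte markers, 6 were higher in KO replicate 2 than in KO replicate 1. Their median difference was 0.11 on the log2 scale, below the 0.30 of all genes tested. Among the 8 markers, 1 differed over 2-fold between the KO livers, against 12.0% of all genes tested. That gene, *Tat*, an enzyme gene known to respond to glucocorticoids, was at 412 and 126 FPKM in KO replicates 1 and 2 and at 158 FPKM in both WT livers. The part of these markers in the values of *Fos*, *Egr1* and *Dusp1* was not tested.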

How the data were processed

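The authors deposited FPKM values for 4 liver libraries, without read counts. According to the paper the reads were trimmed with Trimmomatic, mapped to GRCm38 with HISAT2 and turned into FPKM with Cufflinks, while the submitters' processing notes name HISAT2 2.0.4 and StringTie 2.1.4. No normalization between libraries is stated. The paper describes a stranded TruSeq kit and the labels a BGIseq protocol. GENCODE M21 gave transcript lengths for 98.3% of entries, and the smallest steps of long transcripts (2000 bases or more) gave each library's total. Between 88.5% and 89.5% of low values, those of 20 reads or fewer, were whole numbers of reads to within 0.1.

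Genes averaging 0.1 FPKM or more entered a limma fit (version 3.58.1, R 4.3.3, eBayes with trend) on log2(FPKM + 0.1), a scale that understates the change of low genes, with Benjamini-Hochberg adjustment over all 12346 genes. The procedure was tested on simulated data. Other computations used Python 3.11.15 and SciPy 1.17.1. The paper describes 2 WT and 2 KO mice, and the labels do not say which preparations were separate, so p-values measure the spread between these samples. Every one of the 10 genes is named. From related lists the text names genes past the threshold or, with none, the 2 most abundant, and for *Fos*, *Atf3* and *Myc* the 3 nearest profiles, of which 1 each for *Atf3* and *Myc* is not reported here. *Fosb*, *Btg2*, *Klf4*, *Klf16*, *Ddit3*, *Ddit4*, *Phlda1*, *Hes1*, *Sik1*, *Csrnp1*, *Cebpb* and the single markers were chosen after their values were seen. The genes and lists were chosen with earlier results of these data known. The alternatives were other pseudocounts, filters and scalings, eBayes without trend, a replicate block and each liver left out. Marker lists covered hepatocytes, macrophages, neutrophils, endothelial, stellate, biliary and lymphoid cells.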

Additional observations from a re-analysis of the deposited data

How the results depend on the processing

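Genes past the threshold numbered 121, and 18 with a pseudocount of 1, 80 with no filter on low values and 68 when only genes averaging 1 FPKM or more were kept, where fewer genes were tested. They ranged from 78 to 552 with each liver left out. Of the 10 genes, 0 passed, and 1 did (*Ier3*, at −1.03) with a pseudocount of 0.01. With each liver left out the number ranged from 0 to 2, the latter, *Fos* and *Ier3*, without KO replicate 1. A lone liver was then assumed to vary like the others. That stricter filter left 8 of the 10 genes. The median span over the livers, 1.08, ranged from 0.68 to 1.08 with each liver left out, and was 0.68 without KO replicate 1 and 0.81 without KO replicate 2. The counts of genes over 2-fold between the KO livers were 4 or 5 under alternatives chosen after seeing the data. *Junb* changed sign to −0.01 under quantile normalization, and *Myc* to 0.02 after median-ratio rescaling and 0.04 under quantile normalization. With each liver left out, log2 fold changes ranged from −0.84 to 1.99 for *Fos*, −0.37 to 0.86 for *Jun*, −0.31 to 0.35 for *Junb*, −0.79 to 0.38 for *Egr1*, −0.81 to 0.06 for *Ier2*, −1.49 to −0.30 for *Ier3*, −0.49 to 0.30 for *Atf3*, −0.16 to 0.14 for *Myc*, −0.16 to 0.61 for *Klf6* and −0.36 to 0.81 for *Dusp1*. For *Atf5* they ranged from −2.04 to 1.04 and for *Ddit3* from −1.42 to 0.95. The cause of these changes was not tested. Both genotypes carry replicates 1 and 2, and the correlation between the deviations of same-numbered livers over genes was 0.03. A correlation over genes cannot see a shift common to all genes. The median gene was 0.30 higher in replicate 2 of the KO livers and 0.27 higher in replicate 2 of the WT livers. Whether same-numbered livers were paired or handled together is not in the labels and cannot be decided with 2 pairs. With a replicate block, 108 genes passed and 0 of the 10 did. Of 78 values of the 10 genes under the alternatives that kept all livers, 74 kept their sign and their side of the threshold. With a liver left out, 15 of 40 values turned sign.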
